A study of Mus musculus with 21 samples.

Results

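The 39 genes of the 4 mouse Hox clusters were followed in RNA-seq of embryonic hearts that lack or keep the chromatin remodeller CHD4. They were taken by name, as every row called Hoxa, Hoxb, Hoxc or Hoxd with a number, from 24509 rows in each expression table. Polyadenylated, stranded RNA libraries came from CD1 strain cardiac tissue with the genotype Chd4(flox/flox), the control here called flox, or Chd4(Δflox/Δflox), here called null. There were 5 flox and 5 null libraries at embryonic day (E) 9.5, made from 200 ng of RNA each, and 3 and 3 at E10.5, made from 300 ng each. The series text calls them biological replicates, and the number of hearts in a library, the recombinase and the cells it acts in are not given in the sources used here. Chromatin immunoprecipitation of CHD4 was done on wild-type CD1 hearts at E10.0 and gave 3 peak lists that come from 2 biological samples by the series text.

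Hox genes encode homeodomain transcription factors that give cells their position along the body axis. Within each cluster the genes lie in the order in which they are used: genes of low paralog number act early and towards the head, and genes of high number later and towards the tail. In the embryo the low-numbered genes are switched on by retinoic acid, and Hoxb1 and Hoxa3 mark progenitors of the second heart field that build the outflow tract and parts of the atria. Cardiac neural crest and pharyngeal mesenchyme around the heart also carry them, whereas genes of high number are known from the trunk, limbs and urogenital tract. Polycomb and Trithorax proteins keep the clusters off or on, and CHD4 is the ATPase of NuRD, a complex that moves nucleosomes and removes acetyl groups from histones.

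The E9.5 libraries held 17.1 to 23.5 M reads, of which 382 to 1242 fell on Hox genes. The E10.5 libraries held 17.3 to 18.9 M reads, with 926 to 2489 on Hox genes. Chd4 itself stood at 91.2 to 94.6 RPKM (reads per kilobase of gene, scaled to library depth) in the E9.5 flox libraries and 40.7 to 48.8 RPKM in the null ones. At E10.5 it stood at 67.2, 74.6 and 91.1 RPKM in flox and 48.2, 57.4 and 52.5 RPKM in null. The RPKM counts the whole gene, so a transcript from a recombined allele would be included. Cardiomyocyte markers were abundant in every library, with all 8 above 1 RPKM. Before the Hox values are given, 4 libraries need naming because they stand apart in Hox genes or in other tissue markers. E10.5 flox 1 was the lone library with genes of paralog groups 8 and 9 in quantity. E10.5 null 3 held 121 genes at least 4-fold above every other library of its stage, none of them Hox. E9.5 flox 3 held 21 such genes, Hoxa10 and Hoxa11 among them. E9.5 null 1 was the highest null library for Hoxb2. The other libraries are not all alike in tissue markers. E10.5 flox 2 had the lowest cardiomyocyte marker sum of its stage, 5778 RPKM. E10.5 null 2 had the highest sum of foregut, lung and liver markers, 1379.7 RPKM.

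The promoters of 4 members are printed here because shared CHD4 peaks, those of the first list that overlap a peak in both others, reached 3 of them. The fourth, Hoxd4, had the smallest p of any Hox gene between genotypes. They were chosen after these values were seen. Each is the 250 bases before the RefSeq start site (GRCm38.p6, the assembly of mm10), on the gene's strand. Bases inside a shared peak, by its extent in the first list, are in capitals and need not lie in a peak of the other lists. Hoxa2 lies at chr6:52164832-52165081 on the minus strand, Hoxa5 at chr6:52204588-52204837 on the minus strand, Hoxd10 at chr2:74691641-74691890 on the plus strand and Hoxd4 at chr2:74721728-74721977 on the plus strand.
Hoxa2: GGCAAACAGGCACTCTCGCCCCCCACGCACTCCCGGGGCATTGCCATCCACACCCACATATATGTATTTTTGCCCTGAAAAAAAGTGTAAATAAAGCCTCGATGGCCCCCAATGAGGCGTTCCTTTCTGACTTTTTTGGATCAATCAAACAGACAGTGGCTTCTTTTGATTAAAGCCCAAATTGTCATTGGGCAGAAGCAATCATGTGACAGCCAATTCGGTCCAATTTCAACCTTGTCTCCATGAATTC
Hoxa5: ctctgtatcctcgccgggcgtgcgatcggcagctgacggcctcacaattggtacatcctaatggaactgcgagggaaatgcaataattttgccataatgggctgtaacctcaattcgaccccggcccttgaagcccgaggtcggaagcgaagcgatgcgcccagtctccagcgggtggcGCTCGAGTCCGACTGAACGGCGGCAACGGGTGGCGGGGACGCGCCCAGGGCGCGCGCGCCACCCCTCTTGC
Hoxd10: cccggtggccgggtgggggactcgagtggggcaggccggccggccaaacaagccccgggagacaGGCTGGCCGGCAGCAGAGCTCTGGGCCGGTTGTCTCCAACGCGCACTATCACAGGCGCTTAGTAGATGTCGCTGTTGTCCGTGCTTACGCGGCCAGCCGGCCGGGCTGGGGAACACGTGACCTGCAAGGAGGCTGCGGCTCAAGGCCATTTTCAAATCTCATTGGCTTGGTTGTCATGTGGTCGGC
Hoxd4: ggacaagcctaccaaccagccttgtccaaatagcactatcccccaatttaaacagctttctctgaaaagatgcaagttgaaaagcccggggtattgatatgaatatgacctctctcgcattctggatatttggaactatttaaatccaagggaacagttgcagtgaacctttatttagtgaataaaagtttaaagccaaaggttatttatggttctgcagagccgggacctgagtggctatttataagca

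The Hoxa2 window was inside the shared peak over all 250 bases, the Hoxd10 window over 186 and the Hoxa5 window over 71. Both strands of each window were searched for 4 motifs; hits of different motifs do not overlap in these 4. TGATNNAT, bound by PBX and HOX proteins together, is in the Hoxa2 window and in none of the other 3. AGGTCA, the half-site of retinoic acid receptors, is in the Hoxd10 and Hoxd4 windows, and TTTATG, bound by CDX proteins, is in the Hoxd4 window. CCAAT is in all 4 windows, with 4 copies in that of Hoxa2. Of all 32851 RefSeq promoter windows of this length, 7.68% hold TGATNNAT, 14.0% AGGTCA, 10.8% TTTATG and 33.8% CCAAT. Among the 24 windows of the 22 Hox genes in the table the counts were 4, 6, 5 and 14. Hox windows had a median of 12.5 CpG dinucleotides, against 6 over all windows, but ranged from 2 to 35. The Hoxd4 window had 3 and a G+C content of 40.4%, the lowest of the Hox windows, and the Hoxa5 window had 28.

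Low-numbered Hox genes made up most Hox RNA in these hearts at E9.5. A gene entered the tests when its mean over the libraries of a stage was at least 0.5 RPKM. At E9.5 9 of the 39 genes did, among them Hoxa2, Hoxa3, Hoxa4, Hoxa5, Hoxb2, Hoxb3, Hoxb4 and Hoxc4. All but Hoxa5 belong to paralog groups 1 to 4, of which 8 of 12 genes were tested, against 1 of 11 in groups 5 to 8 and 0 of 16 in groups 9 to 13. At E10.5 20 genes entered, namely the same 9 with Hoxa9, Hoxb5, Hoxb6, Hoxb7, Hoxb8, Hoxb9, Hoxc5, Hoxc6, Hoxc8, Hoxd3 and Hoxd4. A gene that entered only through the libraries where it is high was bound to vary, so counts over the 20 do not describe all 39.

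The other 19 genes entered neither test. Nearest to the limit were Hoxd8, with a mean of 0.479 RPKM at E10.5, Hoxd9, with 0.388 RPKM at E10.5, and Hoxb1, one of the second heart field markers, with 0.385 RPKM at E9.5 and 0.300 RPKM at E10.5. Hoxa9 was just inside at E10.5, with 0.510 RPKM, and Hoxc4 at E9.5, with 0.578 RPKM. Hoxb13, Hoxc11 and Hoxc12 had 0 reads in all 16 libraries, and 3 reads in a library, the upper limit that a count of 0 allows, would be 0.0974 to 0.209 RPKM for them. This limit covers counting error only. Hoxa13 and Hoxd12 were read in E10.5 null 1 alone, at 0.0423 and 0.0438 RPKM, and Hoxa6 reached 0.718 RPKM, in E10.5 flox 1. The rest of the untested genes were Hoxa7, Hoxa10, Hoxa11, Hoxc9, Hoxc10, Hoxc13, Hoxd1, Hoxd10, Hoxd11 and Hoxd13.

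**Figure D1:**
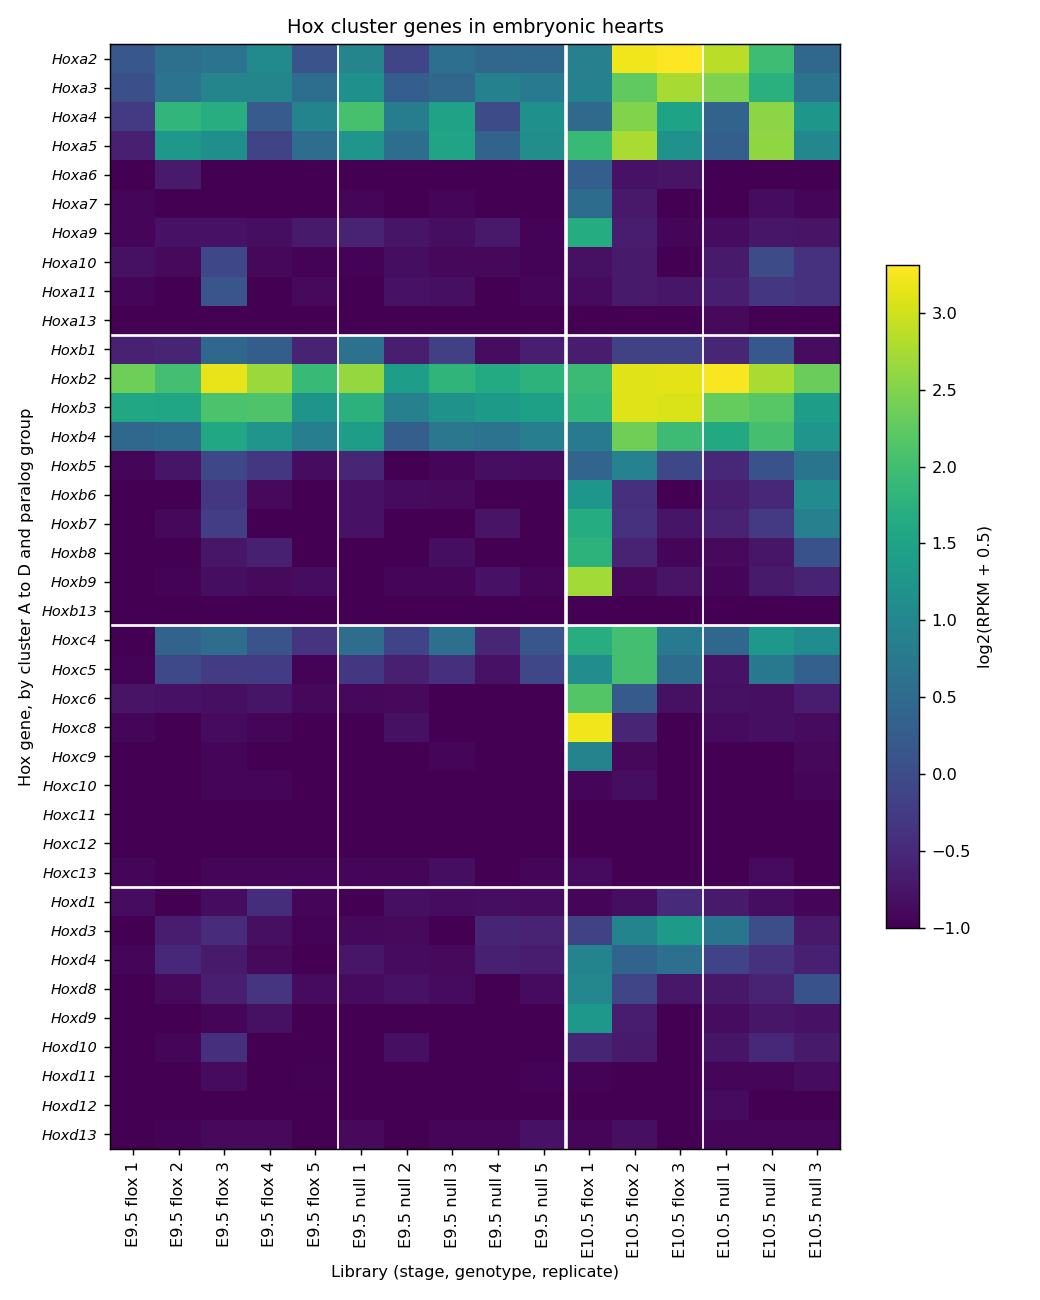
Level of 38 of the 39 Hox genes (rows, by cluster and paralog group) in each of the 16 heart libraries (columns, by stage, genotype and replicate), as log2(RPKM + 0.5) in colour. Hoxb2 and Hoxb3 are bright in every library, at 1.34 RPKM or more, and Hoxd1 is at most 0.238 RPKM, while E10.5 flox 1 has Hoxc8 at 8.81 RPKM and Hoxb9 at 6.04 RPKM where every other library is dark.

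Hoxb2, known from hindbrain segments and the second pharyngeal arch, was the most abundant Hox gene, with a mean of 5.12 RPKM over the 16 libraries. At E9.5 it stood at 4.67, 3.56, 8.45, 5.84 and 3.31 RPKM in flox and at 5.71, 2.13, 3.03, 2.60 and 2.96 RPKM in null. The ranges overlap through null 1, while the other 4 null libraries lie below every flox library. Flox averaged 5.16 ± 2.09 RPKM and null 3.29 ± 1.40 RPKM (SD, n = 5 each). The log2 difference was -0.57 (SE 0.267, limma adjusted p = 0.163). Without null 1 the difference was -0.77 and passed (limma adjusted p = 0.0416), so whether it is called depends on 1 library. At E10.5 Hoxb2 stood at 3.35, 8.06 and 8.26 RPKM in flox and 9.10, 6.31 and 4.52 RPKM in null. There the groups overlap widely (log2 difference 0.06, SE 0.357, limma adjusted p = 0.931).

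Hoxb3, its neighbour, of the paralog group that patterns the pharyngeal arches, had the second-highest mean, 3.40 RPKM. Its E9.5 levels were 2.47, 2.42, 3.77, 3.84 and 1.86 RPKM in flox and 2.91, 1.34, 1.80, 2.06 and 2.23 RPKM in null. The null libraries lie towards the low end of an overlapping range (log2 difference -0.38, SE 0.201, limma adjusted p = 0.216). At E10.5 the levels were 3.11, 8.04 and 7.85 RPKM in flox and 4.42, 4.09 and 2.17 RPKM in null. Flox 2 and flox 3 lie above all null libraries and flox 1 lies among them (log2 difference -0.70, SE 0.372, limma adjusted p = 0.294). The difference was -1.11 without flox 1 (limma adjusted p = 0.224) and -0.42 without null 3. The Hoxb3 span contains that of Hoxb4, so reads could be split between them by the authors' counting.

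Hoxa2, the selector gene of the second pharyngeal arch, was low in all E9.5 libraries and varied widely at E10.5. Its E9.5 levels were 0.630, 1.01, 1.06, 1.56 and 0.569 RPKM in flox and 1.46, 0.430, 0.984, 0.845 and 0.878 RPKM in null, with a log2 difference of -0.04 (SE 0.222, limma adjusted p = 0.910). At E10.5 it stood at 1.35, 8.87 and 9.43 RPKM in flox and 6.82, 3.43 and 0.867 RPKM in null. Flox 1 and null 3 lie far below the other libraries of their genotype, and the groups overlap. Hoxa3, needed for thymus and parathyroid, followed the same order of libraries within each genotype at E10.5. Its E10.5 levels were 1.36, 4.31 and 6.20 RPKM in flox and 5.05, 2.82 and 1.06 RPKM in null, against 0.532, 1.06, 1.44, 1.46 and 0.966 RPKM in E9.5 flox and 1.74, 0.716, 0.845, 1.37 and 1.23 RPKM in E9.5 null. Neither gene passed the threshold at E10.5 (log2 differences -0.71, SE 0.752, and -0.35, SE 0.555, limma adjusted p = 0.598 and 0.730).

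Hoxa4 and Hoxa5 lie inside the annotated span of Hoxa3 and varied together. Hoxa5, known for its role in the lung and trachea, had E9.5 levels of 0.149, 1.98, 1.71, 0.420 and 0.948 RPKM in flox and 1.87, 0.970, 2.37, 0.799 and 1.69 RPKM in null. Hoxa4 had E9.5 levels of 0.336, 3.07, 2.70, 0.678 and 1.42 RPKM in flox and 3.66, 1.27, 2.29, 0.491 and 1.74 RPKM in null. Flox 1 and flox 4 are the low flox libraries for both genes, and null 4 is the lowest null library for both. The E9.5 differences were 0.52 (SE 0.370, limma adjusted p = 0.367) for Hoxa5 and 0.22 (SE 0.457, limma adjusted p = 0.776) for Hoxa4. For Hoxa5 it was 0.25 without flox 1, the library with the lowest level, and 0.96 by voom. At E10.5 Hoxa5 stood at 3.26, 6.28 and 1.81 RPKM in flox and 0.740, 5.53 and 1.52 RPKM in null. Hoxa4 stood at 0.911, 5.13 and 2.34 RPKM in flox and 0.800, 5.41 and 1.94 RPKM in null. Flox 2 and null 2 are the highest of their groups for both genes, and neither passed the threshold (limma adjusted p = 0.524 and 0.944).

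Hoxb4 and Hoxc4, of the fourth paralog group, had overlapping groups at both stages. Hoxb4 went from 0.732 to 2.48 RPKM over the E9.5 libraries and from 1.19 to 4.68 RPKM over those of E10.5. Hoxc4 had 0 reads in E9.5 flox 1 and up to 1.01 RPKM elsewhere at E9.5, and 0.868 to 3.56 RPKM at E10.5.

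No Hox gene passed the threshold between genotypes at either stage. At E9.5 0 of 9 were called by limma (adjusted p under 0.05 over all genes), where 17.2% of the 13643 genes tested were called, and 0 had an unadjusted p under 0.05, where 32.4% of all genes did. In none of the 9 did the groups separate, which they did in 14.1% of all genes. At E10.5 0 of 20 were called, where 2.07% of 14100 genes were called, and 2 had an unadjusted p under 0.05 (Hoxd4 and Hoxc5), where 22.9% of all genes did. Voom on whole reads recovered from the RPKM also called 0 at each stage. Standard errors were larger than for most genes: the median over the tested Hox genes was 0.248 at E9.5 and 0.570 at E10.5, against 0.0974 and 0.199 over all genes. Markers of red blood cells moved with genotype at E9.5. All 8 erythroid markers rose there in null, with a median log2 difference of 1.31, and summed to 10959 to 27955 RPKM in flox and 27742 to 74949 RPKM in null. Hba-x, an embryonic globin, rose from 5968 ± 2439 to 15593 ± 6368 RPKM (SD, n = 5 each, limma adjusted p = 0.0132). Of the 8 cardiomyocyte markers 3 fell at E9.5, namely Nkx2-5, Myh6 and Actc1, and 0 rose. At E10.5 none of either list was called, and the erythroid sums overlapped, with null 3 the highest library. E10.5 flox 2 had a cardiomyocyte sum of 5778 RPKM, against 9049 to 12498 RPKM in the other E10.5 libraries. Its erythroid sum was 67813 RPKM, against 24708 RPKM in flox 1 and 24174.5 RPKM in flox 3. The part of these markers in the Hox values was not tested. A missed threshold does not show equal levels. These are whole hearts, in which fewer cells of a type and less RNA per cell cannot be told apart.

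**Figure D2:**
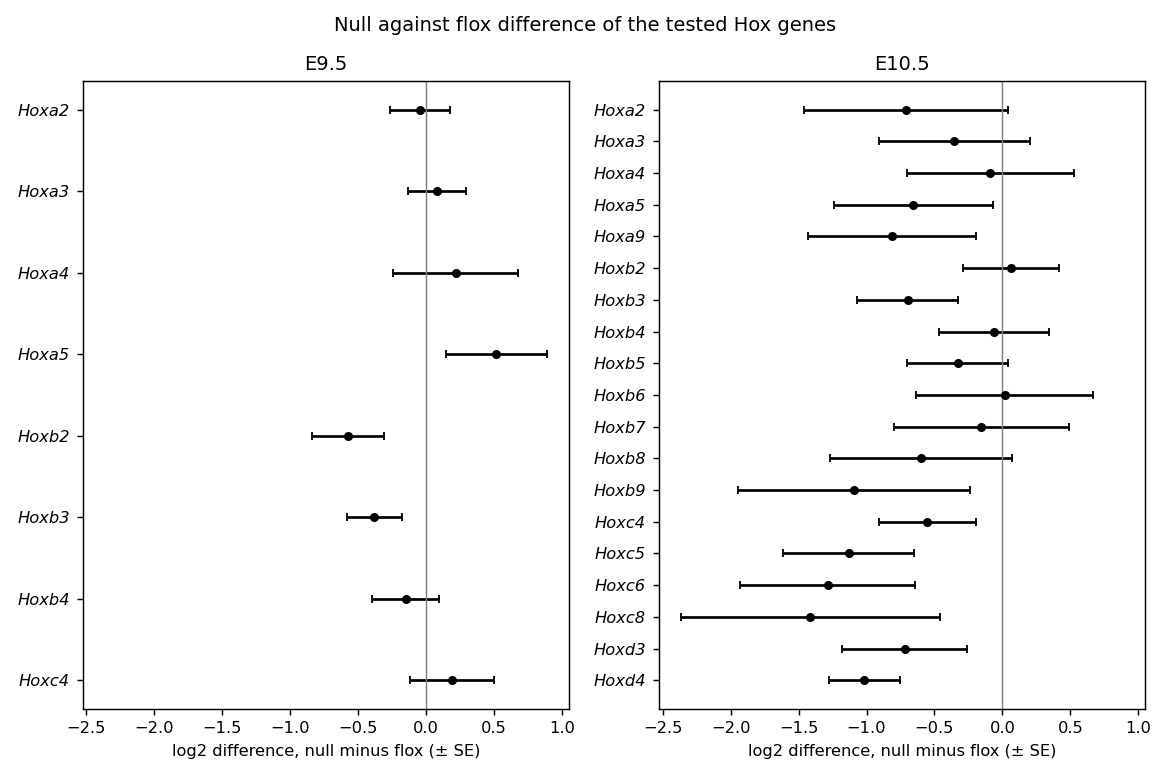
Difference between null and flox in log2(RPKM + 0.5), with its standard error as bars, for 8 of the 9 Hox genes tested at E9.5 and 19 of the 20 tested at E10.5. At E9.5 the values lie on both sides of 0, from -0.57 to 0.52, and at E10.5 they run from -1.41 to 0.06 with wide bars.

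The estimated differences at E10.5 were mostly below 0. Of the 20 tested genes 17 were lower in null by the estimate and 3 higher, with a median log2 difference of -0.63, against -0.03 over all genes. At E9.5 4 were lower and 5 higher, with a median of 0.08 against -0.04, and the E9.5 median turned to -0.07 without flox 1 and to -0.03 without null 1. The genes of a cluster share libraries and regulators and are not replicates, and 7 of the 20 (Hoxa9, Hoxb6, Hoxb7, Hoxb8, Hoxb9, Hoxc6 and Hoxc8), 6 of them with a lower estimate in null, enter only through flox 1. Without flox 1 the number of Hox genes tested fell to 13, the median was -0.68 and again 0 were called. Without flox 2 the median was -0.38 and without null 1 -0.41. Without flox 1 and null 3, a choice made after the data were seen, 13 were tested, the median was -0.53 and 0 were called.

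Summed over all 39 genes, the E10.5 flox libraries held 59.0, 61.4 and 48.6 RPKM of Hox RNA and the null libraries 35.9, 41.5 and 24.2 RPKM. Each flox library is above each null library, although flox 1 reaches its sum with other genes than flox 2 and flox 3. Cluster B gave 22.2, 23.3 and 20.5 RPKM in flox and 16.9, 15.9 and 13.4 RPKM in null, and cluster D 5.54, 3.04 and 3.37 RPKM in flox and 1.96, 1.36 and 1.13 RPKM in null. In these 2 clusters the groups do not overlap, and 17.4% of all single genes tested at E10.5 had every null library below every flox library. In cluster B the separation rests on Hoxb6, Hoxb7, Hoxb8 and Hoxb9 in flox 1 (1.89, 2.68, 2.94 and 6.04 RPKM). Without these genes the cluster B sum of flox 1 would not lie above the null libraries. Cluster A sums overlapped, at 12.6, 27.0 and 22.5 RPKM in flox and 16.04, 20.9 and 7.06 RPKM in null. So did those of cluster C, which were 18.7, 8.13 and 2.23 RPKM in flox and 1.07, 3.31 and 2.63 RPKM in null. At E9.5 the sums over all 39 genes were 11.1 to 28.8 RPKM in flox and 10.0 to 24.5 RPKM in null, with no separation. A sum over chosen genes is a description and was not tested. Levels at the 2 stages come from separate tables and RNA inputs, and stage cannot be told apart from these.

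Hoxd4, which patterns cervical vertebrae, had the smallest p of any Hox gene at E10.5. It stood at 1.44, 0.805 and 0.994 RPKM (66, 37 and 44 reads) in flox and at 0.413, 0.270 and 0.151 RPKM (19, 13 and 7 reads) in null. It is the 1 tested Hox gene whose groups do not overlap, in a fit where 17.4% of all genes have every null library below every flox library. Flox averaged 1.08 ± 0.324 RPKM and null 0.278 ± 0.131 RPKM (SD, n = 3 each). The difference of -1.02 on the log2(RPKM + 0.5) scale (SE 0.262) missed the threshold (limma adjusted p = 0.0894). Without flox 1 it was -0.86 (limma adjusted p = 0.338). With a pseudocount of 0.1 it was -1.67 (limma adjusted p = 0.0964), and voom on the recovered reads gave -1.99 (adjusted p = 0.0600). At E9.5 the gene was at 0 to 0.200 RPKM and entered no test. Its span lies inside that of Hoxd3, a gene with 0.403, 1.42 and 2.05 RPKM in flox and 1.09, 0.511 and 0.114 RPKM in null, whose groups overlap.

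Hoxc5 and Hoxc6 followed among the smallest p values at E10.5. Hoxc5 stood at 1.67, 3.62 and 0.930 RPKM in flox and 0.0813, 1.18 and 0.745 RPKM in null. Null 2 lies above flox 3, so the groups overlap (log2 difference -1.13, SE 0.481, limma adjusted p = 0.209). The size rests on single libraries and on the scale: the difference was -0.69 without null 1, -0.72 without flox 2 and -2.02 by voom. Hoxc6, a gene of thoracic segments, stood at 3.99, 0.664 and 0.0726 RPKM (114, 19 and 2 reads) in flox and 0.0698, 0.0666 and 0.138 RPKM (2, 2 and 4 reads) in null. Its difference rests on flox 1 and flox 2, since flox 3 is below null 3 (log2 difference -1.29, SE 0.645, limma adjusted p = 0.268). It was -1.95 without flox 3 and -2.62 by voom. Leaving out flox 1 takes its mean below the limit for testing.

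No Hox gene is in the authors' deposited table for E9.5, which keeps genes that passed at 0.05 and holds 12.6% of all rows. At E10.5 the authors' deposited table lists 2, Hoxd4 (log2 of control over null 1.20, adjusted p = 0.00979) and Hoxc6 (1.08, adjusted p = 0.0186). That table holds 5.54% of all rows, and 1.73% with the control higher, as in both of these. The 2 of 39 Hox genes listed are near the first share and above the second. Both genes are thus called there and not in the fit used here. For Hoxc6 the table's call stands beside 114, 19 and 2 reads in flox 1, flox 2 and flox 3. Flox 1 thus holds most of its flox reads, and flox 3 is at the level of the null libraries. The authors' comparison is labelled as made without the Cook's cutoff, a DESeq2 filter for outlying libraries.

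The test of whether the genotype difference changed between stages included 11 Hox genes. It called 0 of them, where 3.82% of 13886 genes were called. That background is unstable, since the 531 genes behind it became 4 without E10.5 flox 1 and 1795 without E10.5 null 2. Only Hoxc5 had an unadjusted p under 0.05 in it, with a difference between the stages' log2 differences of -1.18 (SE 0.513, limma adjusted p = 0.159). It was -0.74 without E10.5 null 1 and -2.79 by voom. At E9.5 Hoxc5 had been at 0.0171 to 0.468 RPKM in flox and 0.0784 to 0.442 RPKM in null.

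Most Hox RNA of high paralog number came from a single library, and the genes named for it were chosen after their values were seen. E10.5 flox 1 held Hoxc8, a gene of thoracic segments, at 8.81 RPKM (375 reads), and the highest other E10.5 library held 0.188 RPKM (8 reads). Hoxb9 was at 6.04 RPKM (293 reads) there and at most 0.163 RPKM (8 reads) in the other 5 E10.5 libraries. Hoxa9 was at 2.67 RPKM (155 reads) against at most 0.138, Hoxd9 at 1.96 RPKM (74 reads) against at most 0.132, and Hoxc9 at 1.39 RPKM (43 reads) against at most 0.0324. These last are known from the lower thoracic and lumbar trunk and from the limb buds. Hoxb8 was at 2.94 RPKM against at most 0.561 in the others, and Hoxa7 at 0.941 RPKM against at most 0.114.

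Few other genes set this library apart. Of 24509 rows, 11 had at least 20 reads in flox 1 and at least 4-fold the RPKM of every other E10.5 library. Of these, 8 are Hox genes: Hoxc8, Hoxb9, Hoxa9, Hoxd9, Hoxc9, Hoxa7, Hoxc6 and Hoxb8. Another is Mira, a noncoding RNA inside cluster A, at 3.35 RPKM against at most 0.489. The remaining 2 are Gfra3 and Hpse2, at 0.587 and 0.514 RPKM. Counted the same way, none of the other 5 E10.5 libraries had a Hox gene among its 3 to 121 such genes.

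Summed over the 12 genes of paralog groups 6 to 9, flox 1 held 35.5 RPKM, and flox 2, flox 3 and the 3 null libraries held 2.51, 0.479, 0.688, 1.31 and 4.66 RPKM. The second-highest sum, in null 3, came mainly from Hoxb6 (1.62 RPKM) and Hoxb7 (1.34 RPKM), which stood at 1.89 and 2.68 RPKM in flox 1 and at most 0.334 RPKM in the other 4. For the 12 genes of paralog groups 1 to 4 these were instead the 2 lowest libraries. Flox 1 held 17.3 RPKM and null 3 15.4 RPKM, against 47.1 and 44.8 RPKM in the other flox libraries and 33.7 and 31.8 RPKM in the other null libraries. Groups 10 to 13 were not raised in flox 1: Hoxa10 was at 0.0708 RPKM and Hoxa11 at 0.0486 RPKM.

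**Figure D3:**
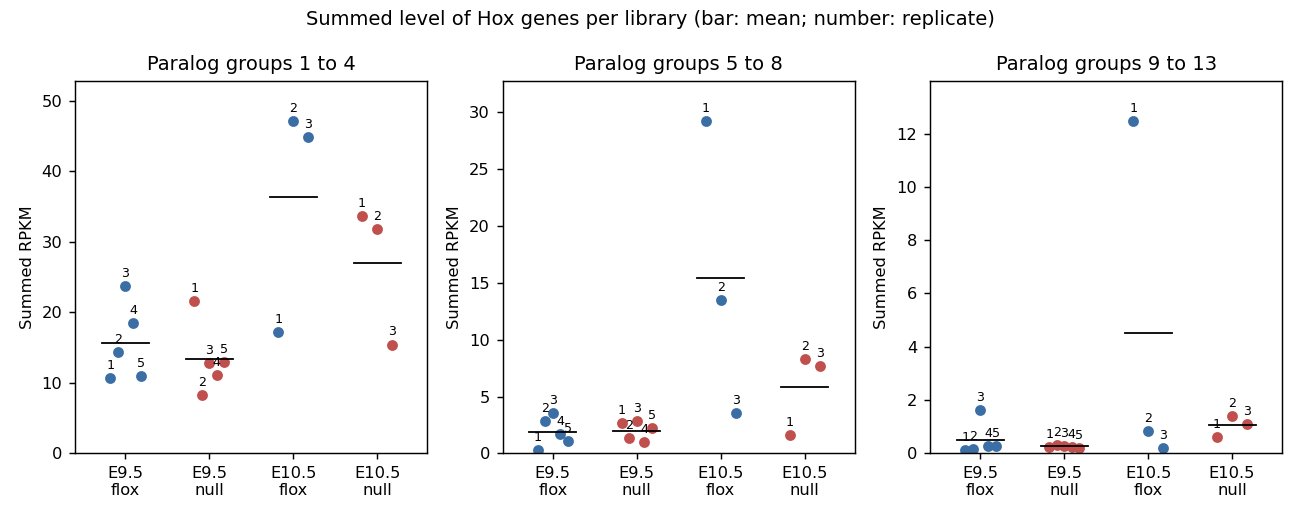
Summed RPKM of Hox genes of paralog groups 1 to 4 (12 genes), 5 to 8 (11 genes) and 9 to 13 (16 genes) in each library, with points numbered by replicate and a bar at the group mean. E10.5 flox 1 is low in the first panel (17.3 RPKM) and the highest library in the other panels.

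**Figure D4:**
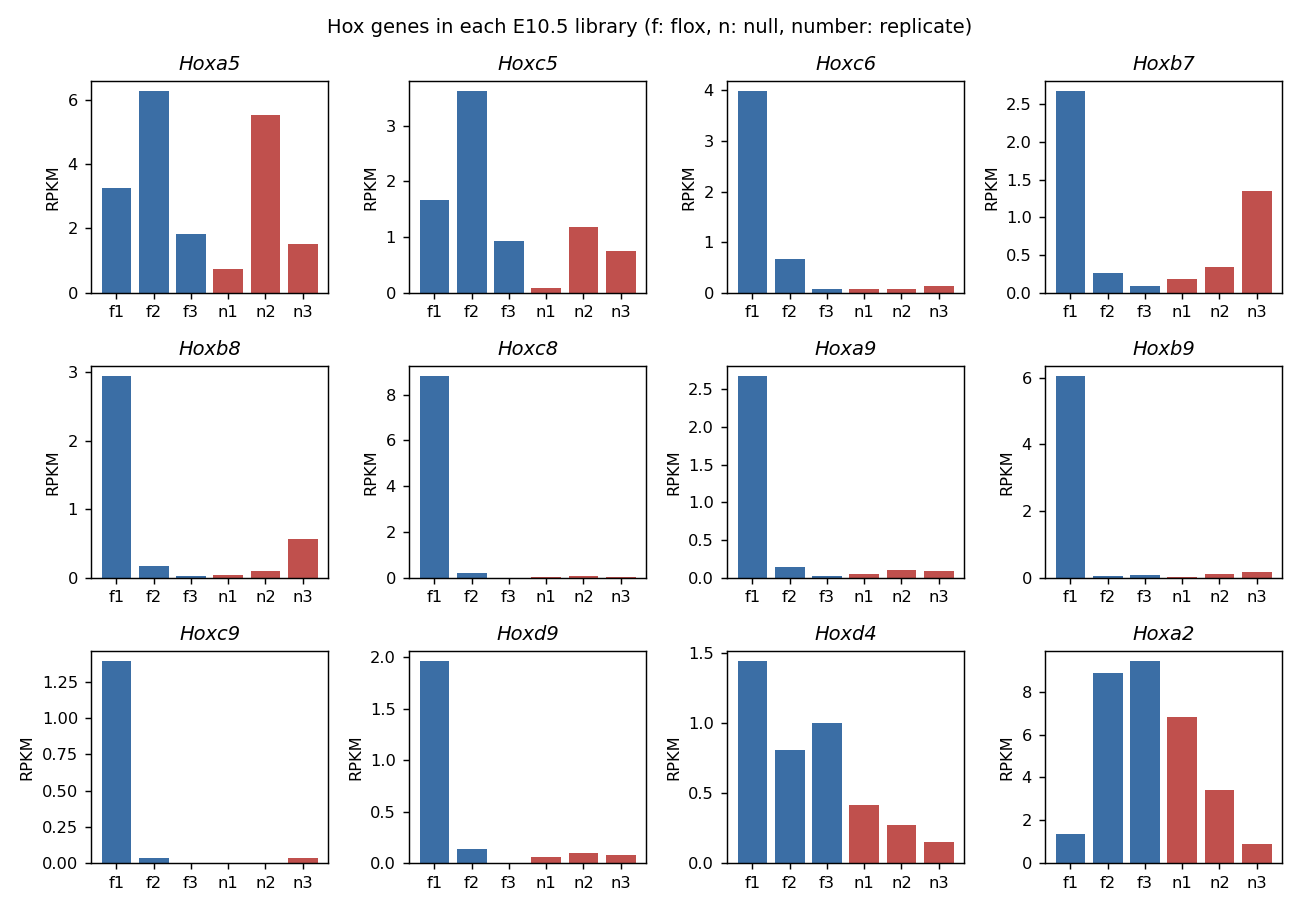
RPKM of 12 Hox genes in each of the 6 E10.5 libraries, flox in blue and null in red, with an axis of its own for each gene. Hoxc8, Hoxa9, Hoxb9, Hoxc9 and Hoxd9 are nearly confined to flox 1, Hoxa2 is low in flox 1 and null 3, and Hoxd4 is lower in each null library than in each flox library.

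Markers of other tissues were read beside these sums, each list holding 8 genes. In flox 1 the neural tube markers summed to 2.84 RPKM with 4 of 8 at 0 reads, within the 1.88 to 7.11 RPKM of the other E10.5 libraries. Somite, limb and body wall markers summed to 7.79 RPKM with 3 of 8 at 0 reads, within the 5.54 to 26.5 RPKM of the others. Neural crest markers summed to 40.9 RPKM in flox 1 against 24.4 to 44.7 RPKM elsewhere. None of these 3 lists was higher in flox 1 than in all other libraries. Epicardial markers summed to 264 RPKM in flox 1, within 215 to 346 RPKM in the others. Pitx1 and En1, homeobox genes of limb and body wall chosen after their values were seen, were at 2.09 and 2.37 RPKM in flox 1 and at most 0.635 and 0.784 RPKM in the other E10.5 libraries.

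Posterior heart field and sinus venosus markers, a list of 8 genes, summed to 83.6 RPKM in flox 1 and 75.6 RPKM in null 3, against 81.1 to 103 RPKM in the other 4. Single genes of the list differed in direction: 4 were lower in both of these libraries than in each of the other 4 (Isl1, Foxf1, Osr1 and Gli1), Wnt2 was higher in both, and 3 were neither. This was not particular to the list. Lower in both libraries were also 4 of 8 somite, limb and body wall markers and 3 of 8 neural crest markers. So were 2 of 8 neural tube and 2 of 8 foregut, lung and liver markers, and 0 of the epicardial, cardiomyocyte and erythroid markers. Isl1, which marks second heart field progenitors, was at 2.45 RPKM in flox 1 and 1.18 RPKM in null 3, against 9.12 to 18.5 RPKM in the other 4. Foxf1, of splanchnic mesoderm, was at 0.895 and 3.60 RPKM in these 2 libraries against 6.67 to 15.5 RPKM. Wnt2, a ligand made at the venous pole, was at 25.6 and 17.7 RPKM against 6.81 to 17.4 RPKM. Shh, made by pharyngeal and foregut endoderm, had 0 reads in flox 1 and 1 in null 3, against 21 to 100 reads elsewhere. The share of such tissue in each dissected heart was not measured, and its part in the Hox levels was not tested. Null 3 also held 942 RPKM of foregut, lung and liver markers, and null 2 1379.7 RPKM, against 8.10 to 184 RPKM in the remaining libraries.

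At E9.5 the summed level of groups 1 to 4 was highest in flox 3 (23.7 RPKM), null 1 (21.6 RPKM) and flox 4 (18.5 RPKM), and 8.34 to 14.4 RPKM in the other 7. The posterior heart field and sinus venosus markers summed to 143 RPKM in flox 3 and 146 RPKM in null 1, above the 71.6 to 114 RPKM of the other 8 libraries. Flox 4, at 88.5 RPKM, was within those. Epicardial markers were low in flox 1, flox 3 and null 1, at 82.8, 147 and 149 RPKM, against 191 to 442 RPKM. Leaving out these 3 libraries, a choice made after the data were seen, gave 0 calls among the same 9 Hox genes and a median log2 difference of -0.14. A part of these markers in the Hox levels was not tested.

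Hoxa10 and Hoxa11, genes of the reproductive tract and limb, appeared in 1 E9.5 library above trace level. Flox 3 held Hoxa10 at 0.454 RPKM (28 reads) and Hoxa11 at 0.601 RPKM (27 reads), and the other 9 E9.5 libraries at most 0.0742 and 0.0770 RPKM. The antisense RNA Hoxa11os had 17 reads in flox 3 and at most 3 in the others. Prap1, a secreted protein of the uterine lining, was at 127 RPKM in flox 3 and at most 8.46 RPKM in the other E9.5 libraries. At E10.5 Prap1 was at 2559 RPKM in null 3, 68.9 RPKM in null 2 and 2.34 to 22.5 RPKM in the others. Hoxa10 was at 0.262, 0.506 and 0 to 0.124 RPKM in the same order, and Hoxa11 at 0.264, 0.301 and 0.0486 to 0.146 RPKM. At E9.5 the same library, flox 3, held most Prap1 and most Hoxa10 and Hoxa11. At E10.5 null 3 held most Prap1, and null 2 held most Hoxa10 and Hoxa11. A part of maternal tissue in these values was not tested.

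Partner and upstream genes of the Hox system were mostly measured without a call. None of the 9 genes of the TALE partners (the PBX, MEIS and PKNOX proteins that bind DNA with HOX proteins) was called at either stage, and their median log2 difference was 0.00 at E9.5, then -0.30 at E10.5. Of the retinoic acid pathway 16 of 18 genes were tested, and 2 fell at E9.5 and 1 at E10.5, with 0 rises. Of all genes tested 10.3% fell at E9.5 and 0.305% at E10.5, so the 2 of 16 at E9.5 are near that share. Rxrb, a partner subunit of retinoic acid receptors, fell from 16.5 ± 0.550 to 13.6 ± 0.651 RPKM at E9.5 (SD, n = 5 each, limma adjusted p = 0.00530), and Rxrg, of the same family, from 1.45 ± 0.163 to 0.853 ± 0.353 RPKM (limma adjusted p = 0.0319). Rdh10, which makes retinaldehyde on the way to retinoic acid, fell at E10.5. It stood at 5.03, 6.41 and 6.27 RPKM in flox and 2.71, 3.31 and 2.50 RPKM in null (log2 difference -0.94, SE 0.179, limma adjusted p = 0.0395).

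Among the Cdx and axial regulators 2 of 8 genes were tested, of which 1 fell at E9.5 and 0 were called at E10.5. Cdx1, Cdx2 and Cdx4, which switch on central and posterior Hox genes in the trunk, had at most 0.115 RPKM in any library and 0 reads in E10.5 flox 1. Of the 19 Polycomb subunits, all tested, 2 fell at E9.5, a share close to the 10.3% of all genes. They were Kdm2b (log2 difference -0.38, limma adjusted p = 0.00974) and Pcgf2 (-0.30, limma adjusted p = 0.0164). At E10.5 0 were called. Of the 13 Trithorax and activating enzymes Kmt2b, a histone H3 lysine methyltransferase, fell at E9.5 (-0.22, limma adjusted p = 0.0368), again 1 gene where 10.3% of all genes fell, and 0 were called at E10.5. Median differences over both lists at E9.5, -0.07 and -0.09, were close to the -0.04 of all genes. The erythroid and cardiomyocyte markers given above moved with genotype at the same stage, and their part in these falls was not tested.

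Genes next to the clusters were called in small numbers at E9.5. The 3 nearest tested genes on each side of each cluster made 24, of which 4 were called, where 17.2% of all genes were: 2 rose at E9.5 (Skap2 and Jazf1, on either side of cluster A, by 0.41 and 0.34 on the log2 scale) and 2 fell (Smug1 by cluster C, -0.33, and Atp5g3 by cluster D, -0.32). None of the 24 was called at E10.5. Within cluster A, the noncoding RNA Hoxaas2 followed the order of Hoxa2 within each genotype. It stood at 1.28, 3.84 and 5.24 RPKM in E10.5 flox and 5.04, 2.44 and 0.948 RPKM in null, with flox 1 and null 3 again the lowest of their groups. The span of Hoxaas2 overlaps that of Hoxa3, which has the same order, so reads could be split between them.

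CHD4 peaks lay in all 4 clusters, most densely in A in the first 2 lists and in D in the third, and least densely in C in each list. The authors' 3 lists hold 84271, 60749 and 50232 peaks, and 22824 peaks of the first list overlap a peak in both others by at least 1 bp. A shared peak was found in the gene span or within 5 kb of it for 20 of the 39 Hox genes, or 51.3%. The share was 70.3% of the 13838 genes tested at either stage with coordinates and 17.8% of 9713 genes not tested. Gene length, neighbours and expression differ between these sets, and at 5 kb the Hox share lies between the shares of the 2 sets. With the gene span alone it was 9 Hox genes, or 23.1%, against 59.1% and 10.5%. With 50 kb on each side it was 37, or 94.9%, above both the 87.1% of tested and the 42.7% of untested genes.

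**Figure D5:**
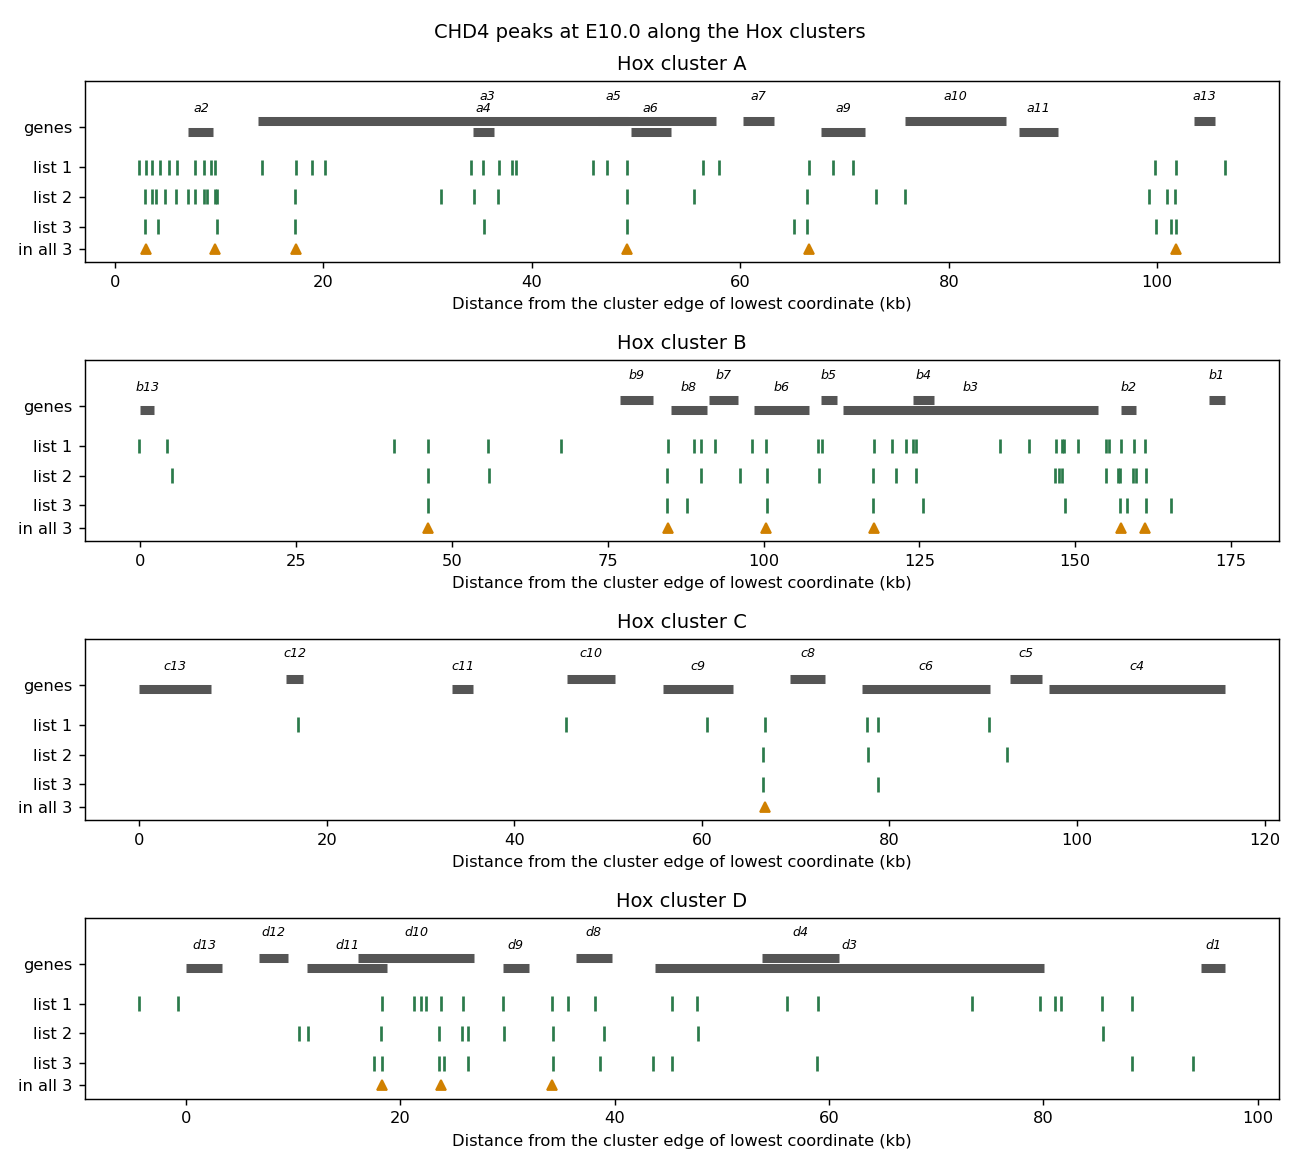
CHD4 peaks of the 3 E10.0 lists (green ticks) and peaks of list 1 that overlap both others (orange triangles) along the 4 Hox clusters, with the spans of 38 genes as grey bars and distance in kb from the cluster edge of lowest coordinate. Cluster A and cluster B hold 6 shared peaks each, cluster D 3 and cluster C 1.

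Cluster A on chromosome 6 and cluster B (chr11:96194316-96368254) held 6 shared peaks each, cluster D (chr2:74668225-74765142) 3 and cluster C (chr15:102921131-103036856) 1. Per 100 kb the first list had 27.5 peaks in A, 16.7 in B, 6.05 in C and 20.6 in D, and the third list 10.4 in A, 6.32 in B, 1.73 in C and 12.4 in D. The authors' peak scores, whose scale is not stated, had a median of 83 and a 90th percentile of 228 over all shared peaks. A shared peak inside Hoxb6 (chr11:96294548-96294990) had scores of 157, 45 and 80 in the 3 lists. One beside Hoxa13 (chr6:52256904-52257482) had 114, 62 and 110. Another in cluster B, outside the gene spans (chr11:96240372-96240580), had 103, 163 and 170. The shared peak over the Hoxa2 promoter printed above had a score of 65 in the first list, that at Hoxa5 93 and that at Hoxd10 74.

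Shared peaks and RNA levels of the Hox genes did not follow one order. Hoxd4, with the smallest p between genotypes, had no shared peak within 5 kb, nor did Hoxc5 or Hoxc6. Hoxa13, with reads in 1 of 16 libraries, had a shared peak within 5 kb, while Hoxb4, read in all libraries, had no shared peak there. These absences depend on the rule that peaks of the lists overlap. Within 5 kb, Hoxb4 and Hoxc6 had a peak in each of the 3 lists taken alone. Hoxd4 had a peak there in lists 1 and 3, and Hoxc5 in lists 1 and 2. In cluster C, where the first list had 7 peaks, Hoxc8 and Hoxc9 were the 2 genes with a shared peak. The binding lists come from wild-type hearts at another stage than the RNA, so binding in flox or null hearts was not measured.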

How the data were processed

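The RPKM values are those the authors deposited, scaled to library depth and to the deposited gene lengths. MACS2, DESeq2 1.6.3, HTSeq 0.6.2 and Bowtie 1.2.0 are among the tools in the submitters' processing notes, with the mm10 build. The sources used here do not say how the counting used strand. Reads of overlapping genes cannot be told apart: 10 Hox spans overlap another Hox span, and 11 overlap a row that is not one of the Hox genes. The authors' deposited log2 values divide control by null, and the p-values in those deposited tables are the authors' adjusted ones. The mean signal and test score in the authors' deposited tables were not used. The peak score is a deposited whole number whose scale is not stated.

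Multiplying RPKM by length returned whole reads, within 0.01, for 100% of values. Differences were fitted in limma 3.58.1 (R 4.3.3) on log2(RPKM + 0.5), with a trend, with a minimum mean of 0.5 RPKM, each stage alone and two-sided. Adjusted p-values are Benjamini-Hochberg over all genes, called under 0.05. The stage difference was an interaction in all 16 libraries. A pseudocount understates changes of low genes. The fits and overlaps were tested on simulated data. For the fits, changes were planted in genes of at least 1 RPKM, with the same dispersion for all genes. That does not measure how well changes of low or variable Hox genes would be found. Gene spans and promoters are RefSeq's (GRCm38.p6). Python 3.11.15 with pandas 2.3.3, numpy 2.4.6 and matplotlib 3.10.9 did the rest. All values were given for the 6 genes of highest mean and the 4 of smallest p per stage, with others by range. The members and gene lists were chosen with earlier results of these data known. The 2 input libraries were not analysed here. A Hox gene and a gene of another list are not reported here by name.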

Additional observations from a re-analysis of the deposited data

Results flagged for a closer look

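Of 13 Hox genes examined in 26 groups of 5 E9.5 libraries, 3 groups held a library far from the rest by Dixon's 95% criterion. Chance alone flags about 1 in 20 groups where genes are chosen without regard to such a library. Hoxa10 and Hoxa11 had 28 and 27 reads in flox 3 and at most 5 and 3 in the other E9.5 libraries. They stood out only through the library flagged, so the 3 of 26 cannot be set against that rate. Groups of 3 libraries, and so the whole of E10.5, were not examined in this way. Hoxa10 stood at 0.454 RPKM in flox 3, and the next flox library at 0.0742 RPKM. Hoxa11 stood at 0.601 RPKM in flox 3, and the next flox library at 0.0420 RPKM. Hoxb2 stood at 5.71 RPKM in null 1, and the next null library at 3.03 RPKM.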

How the results depend on the processing

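The count of Hox genes called was 0 at both stages and for the stage difference with a pseudocount of 0.1 or 1, a limit of 1 RPKM, median scaling, quantile normalization, voom and the replicate block. With no filter on low values 1 was called at E9.5 (Hoxc6, at most 0.0929 RPKM) and 1 for the stage difference (Hoxd4). Leaving out each library in turn gave 0 to 1 at E9.5 (1 without null 1: Hoxb2, -0.77), 0 at E10.5 and 0 for the stage difference. The differences of Hoxa5, Hoxb2 and Hoxb3 at E9.5 and of Hoxb3, Hoxc5, Hoxc6 and Hoxd4 at E10.5 kept their sign under every alternative that left the gene tested, but their size did not hold: a pseudocount of 0.1 gave 0.81 for Hoxa5, -1.70 for Hoxc5, -2.11 for Hoxc6 and -1.95 for the stage difference of Hoxc5, each over 1.5 times the value at 0.5. Hox genes with a shared CHD4 peak numbered 9 with the gene span alone (23.1%, against 59.1% of tested genes), 12 with 1 kb (30.8% against 65.1%) and 37 with 50 kb around it (94.9% against 87.1%). They numbered 35 with a peak in any list (89.7% against 93.6%), 32 with the first list alone (82.1% against 91.8%) and 10 where shared peaks had to overlap by at least 0.5 of their length (25.6% against 42.6%). Same-numbered libraries deviated together for some replicate numbers only. The correlations were 0.45, 0.04, -0.14, 0.52 and 0.26 for numbers 1 to 5 at the first stage, and -0.03 to 0.11 at the second. Whether the numbers mark pairs was not settled by these values. The best match was the library's own number for 3 of 5 and 2 of 3 numbers. With the replicate block 3698 genes were called at E9.5 in place of 2342, 269 at E10.5 in place of 292 and 1377 in place of 531 for the stage difference, with 0 Hox genes each time. The planned edgeR test was not run because the deposited unit is RPKM, and voom used library totals in place of TMM scaling. Leaving out 1 library moved the count over all genes to between 1537 (without null 5) and 2773 (without null 1) at E9.5, to between 62 (without flox 3) and 356 (without null 1) at E10.5, and to between 4 (without E10.5 flox 1) and 1795 (without E10.5 null 2) for the stage difference. It was 1349 at E9.5 without flox 1, flox 3 and null 1, and 22 at E10.5 without flox 1 and null 3. With no filter it was 162 at E10.5, and with quantile normalization 860 for the stage difference. Depth limits genes near 0.5 RPKM.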
